A study of Homo sapiens with 6 samples.

Results

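A set of 39 lysosomal genes was examined in OVCAR5, an established human cancer line commonly studied as ovarian, out of 62656 genes in the deposited tables. The set was given by symbol. It held 8 cathepsins, the tripeptidyl peptidase TPP1, 9 enzymes of glycan breakdown and 5 proteins grouped as lipid handling and activator proteins. Also in it were 6 membrane proteins, 7 subunits of the proton pump and the 3 transcription factors TFEB, TFE3 and MITF. All 39 were found in the tables, and all 39 passed the filter on low counts. Treated cells had received 100 nM NTX301, which the labels call a DNA hypomethylating agent, for 3 days, and the control cells had received the solvent dimethyl sulfoxide (DMSO) for 3 days, with 3 RNA libraries for each treatment. All libraries come from 1 cell line. No label states that the libraries stem from different cultures, so the p-values reflect only how far these libraries scatter, which can be technical. In bulk RNA, fewer cells expressing a gene and less RNA of it per cell cannot be told apart.

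Lysosomes are acidic organelles in which proteins, glycans and lipids delivered by endocytosis and autophagy are broken down. The vacuolar ATPase (V-ATPase) pumps protons into them with a membrane sector, V0, and a cytosolic sector, V1, and the acid activates hydrolases that reach the lysosome by the mannose 6-phosphate route. TFEB, TFE3 and MITF are related basic helix-loop-helix factors that bind the E-box CACGTG in promoters of lysosomal genes, best when it lies in a longer palindrome known as the CLEAR element, and the kinase mTORC1, recruited to the lysosome by Rag GTPases, keeps TFEB in the cytosol when nutrients are plentiful.

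RefSeq promoters (GRCh38.p14, 250 bases before to 50 bases after the start) were matched by symbol for 29 of the 39 genes. Of these, 9 held CACGTG (31.0%), against 9.77% of the 12401 tested genes with a promoter, and 6 held the longer TCACGTGA (20.7%), against 1.77%. Both words read the same on both strands, and each TCACGTGA contains a CACGTG. The promoters of 4 genes are shown as examples, and no call rests on them. CTSD was the most abundant of the set, and LAMP1 held the most E-boxes (6). MCOLN1 alone among the genes with an E-box was higher with NTX301, and GLA had the largest rise and no E-box. Capitals mark CACGTG.
CTSD, chr11:1763878-1764177, minus strand: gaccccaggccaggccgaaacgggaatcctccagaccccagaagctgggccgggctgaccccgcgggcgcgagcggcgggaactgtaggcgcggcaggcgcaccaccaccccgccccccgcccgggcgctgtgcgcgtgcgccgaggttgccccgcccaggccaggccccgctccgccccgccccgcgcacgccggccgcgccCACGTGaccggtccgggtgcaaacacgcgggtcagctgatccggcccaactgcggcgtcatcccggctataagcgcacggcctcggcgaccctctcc
LAMP1, chr13:113296989-113297288, plus strand: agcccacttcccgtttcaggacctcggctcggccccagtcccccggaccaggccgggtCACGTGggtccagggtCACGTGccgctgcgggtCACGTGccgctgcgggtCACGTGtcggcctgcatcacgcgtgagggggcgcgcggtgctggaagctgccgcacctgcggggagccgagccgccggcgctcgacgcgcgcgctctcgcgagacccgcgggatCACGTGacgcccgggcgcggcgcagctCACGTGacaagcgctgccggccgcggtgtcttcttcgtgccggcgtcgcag
MCOLN1, chr19:7522374-7522673, plus strand: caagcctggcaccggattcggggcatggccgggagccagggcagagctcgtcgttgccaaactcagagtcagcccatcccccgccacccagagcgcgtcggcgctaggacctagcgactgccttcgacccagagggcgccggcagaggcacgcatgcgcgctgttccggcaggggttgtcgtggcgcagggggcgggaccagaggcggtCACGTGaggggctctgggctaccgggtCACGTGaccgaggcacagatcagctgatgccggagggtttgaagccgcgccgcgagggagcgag
GLA, chrX:101407876-101408175, minus strand: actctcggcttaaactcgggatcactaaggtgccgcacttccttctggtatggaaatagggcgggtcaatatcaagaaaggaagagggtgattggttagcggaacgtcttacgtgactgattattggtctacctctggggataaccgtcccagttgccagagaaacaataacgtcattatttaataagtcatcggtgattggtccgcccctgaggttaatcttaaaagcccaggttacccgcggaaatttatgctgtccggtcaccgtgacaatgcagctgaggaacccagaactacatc
The single E-box of CTSD began at position -47 from the start, and the pair in MCOLN1 at positions -41 and -14. A match to these letters is a description of the sequence and was not tested for binding.

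More of the set was lower than higher with NTX301. Of the 39 genes, 24 fell and 10 rose at an adjusted p under 0.05 (edgeR quasi-likelihood test, Benjamini-Hochberg adjustment over all genes tested), which is 61.5% and 25.6% of the set. Across the 19029 genes tested, 70.5% passed the same threshold, with 35.1% lower and 35.4% higher. The median log2 fold change (NTX301 over DMSO) of the set was -0.41, against 0.00 for all genes tested. Past a fold of 1.5, 14 of the 39 fell and 7 rose, against 19.0% and 21.4% of all genes tested. CPM of the treatments did not overlap in 34 of the 39, against 73.7% of all genes tested. The split depended on scaling: with library totals alone, 22 fell and 15 rose, so that 40.5% of the set's calls were higher, against 29.4% with TMM factors. There, 24.9% of all genes tested were lower and 46.2% higher. On log2(TPM + 1) 20 fell and 14 rose, against 22.5% of all genes lower and 45.2% higher. Both shift the median of all genes, to 0.21 and 0.17, so directions below are relative to the typical gene.

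**Figure D1:**
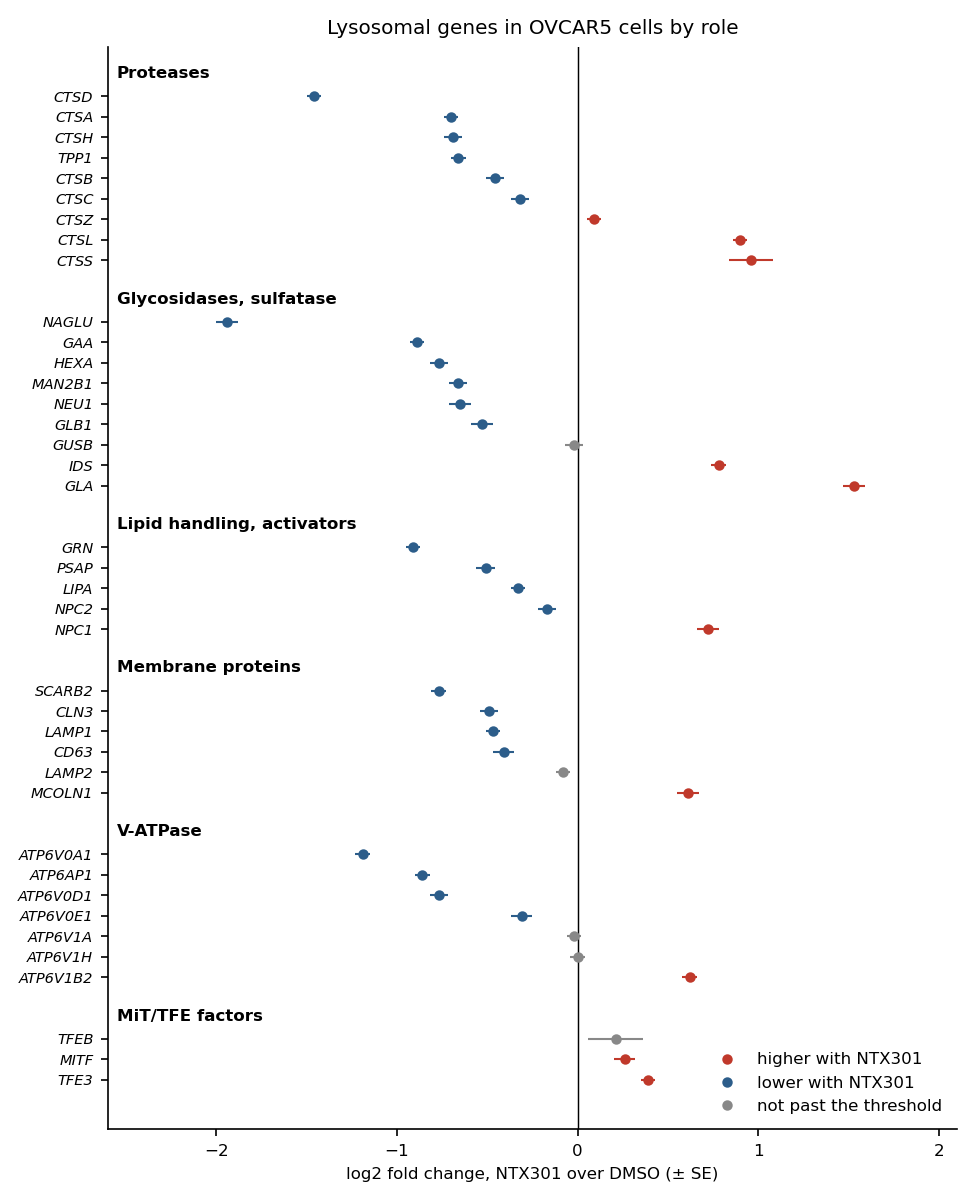
Log2 fold change of each of the 39 genes (x axis, NTX301 over DMSO, with standard errors from the edgeR fit) by role (rows), from 3 libraries for each treatment. Points lie between -1.94 (NAGLU) and 1.53 (GLA), and red, blue and grey mark genes that were higher, lower or not past the threshold.

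The libraries held 23194160 to 23842859 estimated counts with NTX301 and 22131175 to 25743732 with DMSO. Of 8 epithelial markers, 7 averaged at least 1 TPM with each treatment, among them KRT8 (1179.6 ± 20.8 TPM with NTX301 and 2159 ± 40.7 TPM with DMSO, SD, n = 3 each), and MUC16 averaged 0.0300 TPM with NTX301 and 0.133 TPM with DMSO. The epithelial markers summed to 2461 to 2541 TPM with NTX301 and 4381 to 4556 TPM with DMSO, and the part of this shift in the results below was not tested. Of 12 macrophage and leukocyte markers, 10 averaged under 1 TPM with each treatment, and C1QA and C1QC had no counts in any library. Their summed level was 30.4 to 31.5 TPM with NTX301 and 17.8 to 18.7 TPM with DMSO, most of it CD14 (27.2 ± 0.129 TPM with NTX301 and 16.7 ± 0.764 TPM with DMSO, SD, n = 3 each). Fibroblast markers summed to 5.40 to 5.93 TPM with NTX301 and 1.45 to 1.88 TPM with DMSO, with 6 of 8 and 7 of 8 under 1 TPM and PDPN without counts. DMSO replicate 3 stood farther from its group than any other library (chi-square per degree of freedom 6.57 and 6.21 against DMSO replicates 1 and 2, and 2.67 between those). Without it 25 genes fell and 9 rose.

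Levels scaled for transcript length, as TPM, spanned CTSD at the top and TFEB at the bottom. CTSD, the aspartic protease cathepsin D, averaged 1067 TPM with NTX301 and 2537 TPM with DMSO, followed over all libraries by PSAP, CD63, GRN and LAMP1. All 39 together summed to 6929, 6955 and 6969 TPM in the NTX301 libraries, against 9193, 9608 and 9036 TPM in the DMSO libraries. CTSD made up 15.1%, 15.6% and 15.4% of that sum with NTX301 and 27.0%, 27.4% and 27.6% with DMSO. The other 38 genes summed to 5881, 5873 and 5896 TPM with NTX301, and to 6714, 6974 and 6538 TPM with DMSO, so the sum was lower in each NTX301 library also without CTSD. These sums are descriptions and carry no test.

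**Figure D2:**
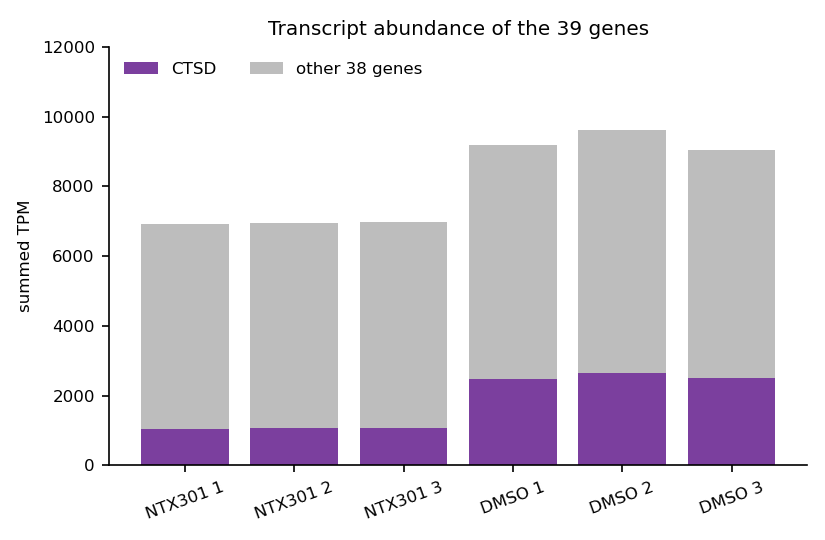
Summed TPM of the 39 genes (y axis) in each of the 6 libraries (x axis), split into CTSD and the other 38 genes. The NTX301 bars reach 6929 to 6969 TPM and the DMSO bars 9036 to 9608 TPM.

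Among the proteases, 6 of 9 fell and 3 rose. Beside this and the later counts by role, 35.1% of all genes tested were lower and 35.4% higher. Values per library are CPM, counts scaled to a common library total with TMM factors. A value after ± is the SD over 3 libraries beside a mean and the standard error beside a log2 fold change (NTX301 over DMSO). CTSD (ENSG00000117984.15, chr11:1752752-1764573 in GRCh38) had 1051, 1090.1 and 1021 CPM in the NTX301 libraries, against 2899, 2988 and 2796 CPM in the DMSO libraries. The treatments were far apart, and CTSD fell 2.75-fold (log2 -1.46 ± 0.04, adjusted p = 1.6e-10). CTSA, the protective protein that stabilises neuraminidase and beta-galactosidase, had 202, 206 and 196 CPM in the NTX301 libraries, against 326, 339 and 317 CPM in the DMSO libraries (log2 -0.70 ± 0.04). TPP1, which removes tripeptides from protein ends, had 374, 382 and 369.6 CPM in the NTX301 libraries, against 575, 595 and 607 CPM in the DMSO libraries (log2 -0.66 ± 0.04). CTSH, an aminopeptidase, had 43.7, 42.5 and 40.6 CPM in the NTX301 libraries, against 70.4, 69.3 and 64.2 CPM in the DMSO libraries (log2 -0.69 ± 0.05). In CTSA, TPP1 and CTSH the treatments did not overlap, and all 3 genes fell by between 1.58-fold and 1.63-fold. CTSB, an abundant cysteine protease, averaged 301 ± 10.0 CPM with NTX301 and 413 ± 19.9 CPM with DMSO (log2 -0.46 ± 0.05), and CTSC, which activates granule serine proteases, had 304, 324 and 284 CPM in the NTX301 libraries, against 393, 379 and 368 CPM in the DMSO libraries (log2 -0.32 ± 0.05). The fall of CTSC was not past the threshold on log2(TPM + 1) (-0.08, adjusted p = 0.2119, 1.1e-09 to 0.2261 over the alternatives).

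The 3 proteases that rose were CTSL, CTSS and CTSZ. CTSL, a cysteine endopeptidase (ENSG00000135047.16, chr9:87725519-87731393 in GRCh38), had 176, 169 and 171 CPM in the NTX301 libraries, against 90.5, 97.6 and 88.0 CPM in the DMSO libraries. Its lowest NTX301 library was far above its highest DMSO library, and it rose 1.87-fold (log2 0.90 ± 0.04, adjusted p = 5.6e-09). CTSS, a protease best known from antigen-presenting cells, was scarce, with 7.60, 7.98 and 9.32 TPM in the NTX301 libraries, against 4.09, 3.73 and 3.33 TPM in the DMSO libraries (log2 0.96 ± 0.12). The ratio of CTSL to CTSD in TPM, which does not depend on how libraries are scaled, was 0.252, 0.230 and 0.244 with NTX301, against 0.0468, 0.0489 and 0.0464 with DMSO. CTSV, the close paralogue of CTSL and no member of the set, averaged 38.9 ± 2.80 CPM with NTX301 and 11.2 ± 0.992 CPM with DMSO (log2 1.80 ± 0.08), and how reads are divided between such copies is uncertain. CTSZ, a carboxypeptidase, averaged 206 ± 2.22 CPM with NTX301 and 193 ± 5.15 CPM with DMSO. Its difference was small (log2 0.09 ± 0.04, adjusted p = 0.0417), was lost in each fit that left out 1 library (adjusted p = 0.0529 to 0.1517) and without the filter on low counts (0.2863).

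**Figure D3:**
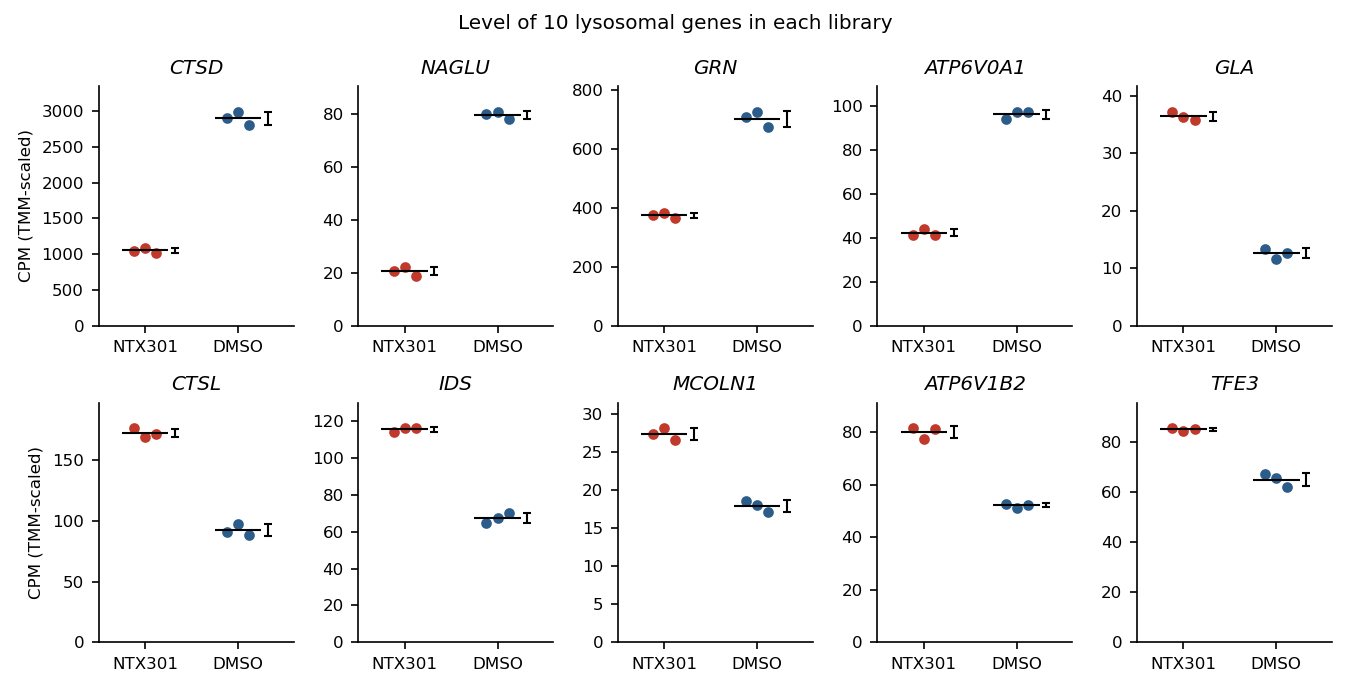
CPM after TMM scaling (y axis, from 0) in each library for 10 of the genes, with NTX301 left of DMSO, a line at the mean of 3 libraries and a bar for 1 SD beside it. CTSD, NAGLU, GRN and ATP6V0A1 are lower with NTX301 and GLA, CTSL, IDS, MCOLN1, ATP6V1B2 and TFE3 higher. In none of the 10 do the treatments overlap, as in 73.7% of all genes tested. The 10 were chosen for display from genes past the threshold, and of the 39 genes 24 fell and 10 rose.

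Enzymes of glycan breakdown held both the largest fall and the largest rise of the 39 genes, with 6 of 9 lower and 2 higher. NAGLU, which removes N-acetylglucosamine from heparan sulfate (ENSG00000108784.10, chr17:42536172-42544449 in GRCh38), had 20.9, 22.3 and 19.0 CPM in the NTX301 libraries, against 80.1, 80.9 and 78.1 CPM in the DMSO libraries. All NTX301 libraries lay far below all DMSO libraries, a 3.84-fold fall (log2 -1.94 ± 0.06, adjusted p = 1.2e-10). GLA, the alpha-galactosidase A that is deficient in Fabry disease (ENSG00000102393.14, chrX:101397803-101408012 in GRCh38), had 37.2, 36.3 and 35.7 CPM in the NTX301 libraries, against 13.4, 11.7 and 12.7 CPM in the DMSO libraries. It rose 2.89-fold (log2 1.53 ± 0.06, adjusted p = 9.4e-10). GLA overlaps RPL36A-HNRNPH2 on the other strand, which averaged 92.3 ± 11.0 CPM with NTX301 and 95.1 ± 3.97 CPM with DMSO (mean ± SD, n = 3 each) and was not past the threshold. No strand setting is given in the sources used here, and the share of such reads in GLA was not tested.

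IDS, the iduronate 2-sulfatase of heparan and dermatan sulfate breakdown, had 114, 116 and 116 CPM in the NTX301 libraries, against 64.4, 67.5 and 69.9 CPM in the DMSO libraries (log2 0.78 ± 0.04). Its reads could also match the pseudogene copy IDSP1. The abundance-weighted transcript length of IDS moved with its level, at 5362, 5829 and 5568 bases with NTX301, against 4697, 4641 and 4983 bases with DMSO. The tables hold 3 IDS transcripts, of which GENCODE 29 gives the lengths 7619, 1399 and 1213 bases, the first for another version of that transcript, so the weight was more on the long transcript with NTX301. IDS was the only one of the 39 whose mean length differed by over 10%, against 6.98% of all genes tested.

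Other sugar-cleaving enzymes fell by less. GAA, which digests lysosomal glycogen, had 126, 128 and 123 CPM in the NTX301 libraries, against 233, 241 and 222 CPM in the DMSO libraries (log2 -0.89 ± 0.04). HEXA, the alpha subunit of beta-hexosaminidase, had 175, 185 and 168 CPM in the NTX301 libraries, against 306, 306 and 287 CPM in the DMSO libraries (log2 -0.77 ± 0.05). MAN2B1, an alpha-mannosidase, had 44.2, 46.7 and 47.1 CPM in the NTX301 libraries, against 76.4, 73.1 and 69.0 CPM in the DMSO libraries (log2 -0.66 ± 0.05). In GAA, HEXA and MAN2B1 the highest NTX301 library was below the lowest DMSO library. NEU1, the sialidase that CTSA protects, had 120.4, 119 and 111 CPM in the NTX301 libraries, against 191, 192 and 167 CPM in the DMSO libraries (log2 -0.65 ± 0.06), and GLB1, the beta-galactosidase of the same complex, averaged 81.0 ± 3.35 CPM with NTX301 and 117 ± 10.7 CPM with DMSO (log2 -0.53 ± 0.06). CTSA, NEU1 and GLB1, whose products form 1 complex, all fell, with log2 fold changes of -0.70, -0.65 and -0.53. GUSB, the beta-glucuronidase, averaged 72.7 ± 1.32 CPM with NTX301 and 73.6 ± 4.90 CPM with DMSO and was not past the threshold (log2 -0.02, adjusted p = 0.7547), but had a positive change with library totals alone (0.19, adjusted p = 0.0038, over the alternatives 0.0038 to 0.9525). Reads of GUSB may be shared with its pseudogenes.

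Of the 5 genes grouped as lipid handling and activator proteins, 4 fell, among them NPC2 and LIPA, which were not past the threshold on log2(TPM + 1). PSAP, the precursor of the saposins that present lipids to hydrolases, was the second most abundant of the set and had 1024, 1011 and 996 CPM in the NTX301 libraries, against 1468, 1511 and 1351 CPM in the DMSO libraries (log2 -0.51 ± 0.05). GRN, the progranulin precursor, had 377, 381 and 365 CPM in the NTX301 libraries, against 707, 725 and 672 CPM in the DMSO libraries (log2 -0.91 ± 0.04). No NTX301 library of PSAP or GRN reached the lowest DMSO library. NPC1, the membrane transporter that exports cholesterol, had 63.9, 56.7 and 64.9 CPM in the NTX301 libraries, against 40.4, 35.7 and 36.4 CPM in the DMSO libraries (log2 0.72 ± 0.06) and was the only one of the 5 that rose. It overlaps RMC1 on the other strand, which also rose (12.9 ± 0.286 CPM with NTX301 and 6.44 ± 0.517 CPM with DMSO), and the part of such reads in NPC1 was not tested. NPC2, the soluble protein that hands cholesterol to NPC1, averaged 117 ± 4.42 CPM with NTX301 and 132 ± 6.98 CPM with DMSO and fell slightly (log2 -0.17 ± 0.05, adjusted p = 0.0063), but its change was 0.03 with library totals alone and 0.04 on log2(TPM + 1), neither past the threshold. ISCA2, which overlaps NPC2 on the other strand, rose (27.9 ± 1.14 CPM with NTX301 and 23.2 ± 2.45 CPM with DMSO), and its part in the reads of NPC2 was not tested. LIPA, the acid lipase that releases this cholesterol from esters, averaged 107 ± 2.06 CPM with NTX301 and 135 ± 7.11 CPM with DMSO (log2 -0.33 ± 0.04) and was not past the threshold on log2(TPM + 1) (-0.11, adjusted p = 0.0806, 4.9e-09 to 0.0907 over the alternatives). It spans IFIT1, IFIT2 and IFIT3 on the other strand, of which IFIT1 fell (21.7 ± 1.39 CPM with NTX301 and 28.4 ± 1.13 CPM with DMSO).

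Of the 6 genes of membrane proteins, 4 fell and 1 rose. SCARB2, the receptor that carries glucocerebrosidase to the lysosome, had 218, 225 and 217 CPM in the NTX301 libraries, against 371, 371 and 381 CPM in the DMSO libraries (log2 -0.77 ± 0.04). LAMP1, a heavily glycosylated protein of the limiting membrane, averaged 562 ± 11.4 CPM with NTX301 and 779.8 ± 16.4 CPM with DMSO (log2 -0.47 ± 0.04). The tetraspanin CD63, next to PSAP in TPM, had 317, 317 and 290.1 CPM in the NTX301 libraries, against 424, 429.5 and 374 CPM in the DMSO libraries (log2 -0.41 ± 0.06). SCARB2, LAMP1 and CD63 were each lower in every NTX301 library than in any DMSO library. CLN3, the membrane protein lost in a form of juvenile neuronal ceroid lipofuscinosis, averaged 31.3 ± 0.764 CPM with NTX301 and 43.9 ± 1.52 CPM with DMSO (log2 -0.49 ± 0.05). MCOLN1, the calcium channel TRPML1, through which lysosomal calcium activates TFEB, had 27.4, 28.1 and 26.6 CPM in the NTX301 libraries, against 18.6, 18.0 and 17.1 CPM in the DMSO libraries (log2 0.61 ± 0.06) and rose. LAMP2, which takes part in chaperone-mediated autophagy, averaged 213 ± 4.47 CPM with NTX301 and 225 ± 8.80 CPM with DMSO and was not past the threshold (log2 -0.08, adjusted p = 0.1113), with overlapping treatments. Its change was 0.13 with library totals alone (adjusted p = 0.0078) and -0.12 without DMSO replicate 3 (adjusted p = 0.0169), with adjusted p from 0.0078 to 0.6317 over the alternatives.

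Among the 7 proton pump genes, 4 fell, 1 rose and 2 did not pass the threshold. ATP6V0A1, the a1 subunit of the proton path (ENSG00000033627.18, chr17:42458844-42522611 in GRCh38), had 41.3, 44.0 and 41.3 CPM in the NTX301 libraries, against 93.8, 97.2 and 97.0 CPM in the DMSO libraries. It fell 2.27-fold (log2 -1.19 ± 0.04, adjusted p = 5.2e-10). ATP6V0D1, which couples the stalk to the membrane ring, had 76.2, 77.9 and 79.2 CPM in the NTX301 libraries, against 135, 140.2 and 122 CPM in the DMSO libraries (log2 -0.77 ± 0.05). ATP6AP1, an accessory subunit of pump assembly, had 80.1, 80.4 and 76.3 CPM in the NTX301 libraries, against 146, 147 and 135 CPM in the DMSO libraries (log2 -0.86 ± 0.04). In each of these genes the treatments were well apart. ATP6V1B2, a subunit of the V1 head, had 81.4, 77.4 and 81.0 CPM in the NTX301 libraries, against 52.7, 51.2 and 52.2 CPM in the DMSO libraries and rose (log2 0.62 ± 0.04). ATP6V0E1, a small V0 subunit, averaged 123 ± 5.41 CPM with NTX301 and 153 ± 14.5 CPM with DMSO (log2 -0.31 ± 0.06) and was not past the threshold with library totals alone (-0.11, adjusted p = 0.1188, over the alternatives 3.5e-06 to 0.2149). ATP6V1A, the subunit that hydrolyses ATP, averaged 121 ± 2.92 CPM with NTX301 and 123 ± 1.66 CPM with DMSO, and ATP6V1H, which regulates the pump, averaged 96.2 ± 1.90 CPM with NTX301 and 96.1 ± 4.20 CPM with DMSO. Neither was past the threshold (log2 -0.02 and 0.00, adjusted p = 0.6140 and 0.9732), and both were higher with library totals alone (0.18 and 0.21, adjusted p = 0.0011 and 5.6e-04, over the alternatives 0.0011 to 0.8475 and 5.6e-04 to 0.9686).

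The pump was then described by sector over all listed subunits, a grouping chosen after the values were seen. Of 9 tested V0 genes 6 fell and 3 rose (median log2 fold change -0.31), and of 12 tested V1 genes 4 rose and 1 fell (median 0.03), where 35.1% of all genes tested were lower and 35.4% higher. With the scarce ATP6V0A4 counted, the share of genes that rose was the same in both sectors and near that of all genes. Without ATP6V0A4, 2 of 8 tested V0 genes rose and 6 fell (median -0.39). With library totals alone these were 4 lower and 3 higher for V0 and 1 lower and 9 higher for V1, where 24.9% of all genes were lower and 46.2% higher. TCIRG1, the a3 subunit of V0, fell (125 ± 3.05 CPM with NTX301 and 220.3 ± 8.36 CPM with DMSO, log2 -0.82 ± 0.04), and ATP6V1D, a subunit of the V1 rotor, rose (87.1 ± 2.09 CPM with NTX301 and 54.5 ± 1.53 CPM with DMSO, log2 0.68 ± 0.04). Exceptions in V0 were ATP6V0A2, ATP6V0B and the scarce ATP6V0A4. The ratio of summed V1 to summed V0 TPM, which scaling does not touch, was 0.607, 0.594 and 0.616 in the NTX301 libraries, against 0.385, 0.384 and 0.405 in the DMSO libraries. Without ATP6V0C and ATP6V0E1, the most abundant V0 genes, it was 1.75 to 1.82 with NTX301 and 1.19 to 1.21 with DMSO.

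**Figure D4:**
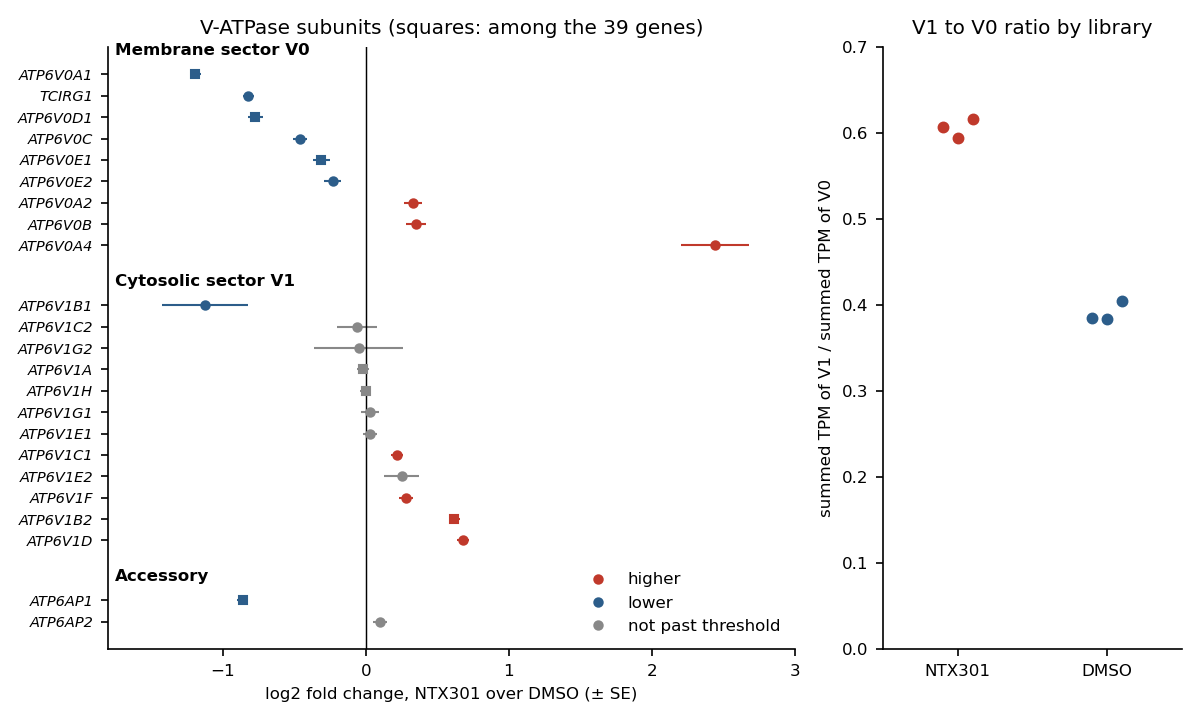
Left, log2 fold change (NTX301 over DMSO, with standard errors) of each tested V-ATPase subunit by sector, with squares for those among the 39 genes. Right, summed TPM of V1 divided by that of V0 in each library, at 0.594 to 0.616 with NTX301 and 0.384 to 0.405 with DMSO.

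The transcription factors were not among the genes that fell. TFE3 was by far the most abundant of the 3 in TPM, and had 85.5, 84.4 and 85.3 CPM in the NTX301 libraries, against 67.2, 65.6 and 62.1 CPM in the DMSO libraries (log2 0.39 ± 0.04, adjusted p = 4.5e-06). MITF had 25.6, 24.4 and 25.7 CPM in the NTX301 libraries, against 19.9, 21.6 and 21.5 CPM in the DMSO libraries (log2 0.26 ± 0.06, adjusted p = 0.0014). TFE3 and MITF were higher in each NTX301 library than in any DMSO library, by 1.31-fold and 1.20-fold. TFEB had 4.92, 5.51 and 5.83 CPM in the NTX301 libraries, against 5.40, 3.67 and 5.01 CPM in the DMSO libraries, and its libraries overlapped (log2 0.21 ± 0.15, adjusted p = 0.2268). Its change was 0.42 with library totals alone (adjusted p = 0.0256), and its adjusted p ran from 0.0256 to 0.7702 over the alternatives. RNA levels do not show where the factors reside or whether they are phosphorylated.

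Genes with an E-box were set beside these calls. Of the 9 promoters with CACGTG, 8 belonged to genes that fell (CTSA, CTSD, GAA, NEU1, LAMP1, CD63, CLN3 and ATP6V0D1) and 1 to a gene that rose (MCOLN1). Of the 20 without it, 11 belonged to genes that fell and 7 to genes that rose. Among all 1211 tested genes with CACGTG in the promoter, 35.8% were lower and 42.4% higher, against 37.6% and 38.1% of those without. The 220 with TCACGTGA were lower in 45.5% and higher in 35.5%. The median number of CG dinucleotides in the 300 bases was 28 for the matched lysosomal genes, 28 for both those that rose and those that fell, and 25 for all tested genes with a promoter.

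Other lysosomal genes, from lists that shared no gene with the 39, were counted in the same fit, in which 35.1% of all genes tested were lower and 35.4% higher. These lists were also chosen with earlier results of these data known, so their counts are no independent check. Of 35 other hydrolases and activators, 25 fell and 6 rose (median log2 fold change -0.52). IDUA, the iduronidase that acts after IDS on the same glycans, averaged 6.92 ± 0.957 CPM with NTX301 and 30.4 ± 3.73 CPM with DMSO (log2 -2.13 ± 0.11), and CTSV rose as given above. Of 25 other lysosomal membrane proteins, 19 fell and 2 rose (median -0.41). TMEM106B, a glycoprotein of the lysosomal membrane, averaged 144 ± 13.3 CPM with NTX301 and 458 ± 7.96 CPM with DMSO (log2 -1.67 ± 0.06), and LMBRD1, which takes part in cobalamin export, averaged 20.2 ± 1.67 CPM with NTX301 and 54.9 ± 0.690 CPM with DMSO (log2 -1.45 ± 0.06). Of 18 other pump subunits, 16 were tested, and 6 rose (37.5%) and 4 fell, so the share that rose was near that of all genes.

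Of 21 genes that deliver enzymes to the lysosome, 14 fell and 7 rose (median -0.33), and on log2(TPM + 1) 9 fell, where 22.5% of all genes were lower. SORT1, the sorting receptor sortilin, averaged 65.0 ± 1.65 CPM with NTX301 and 122 ± 0.125 CPM with DMSO (log2 -0.91 ± 0.04), and AP1S2, a small subunit of the AP-1 clathrin adaptor, averaged 57.3 ± 2.45 CPM with NTX301 and 21.3 ± 0.503 CPM with DMSO (log2 1.43 ± 0.05). Of 28 genes listed for Rag GTPase and mTORC1 control of TFEB, 15 fell and 6 rose (median -0.12). The list also held TFEC, a scarce relative of TFEB, which was among the 6 that rose. On log2(TPM + 1) 12 of the list were higher and 8 lower, where 45.2% of all genes were higher and 22.5% lower. TSC2, which restrains mTORC1, averaged 61.7 ± 0.0211 CPM with NTX301 and 142 ± 2.33 CPM with DMSO (log2 -1.20 ± 0.04), and MLST8, a subunit of mTORC1, averaged 25.9 ± 0.493 CPM with NTX301 and 65.7 ± 3.96 CPM with DMSO (log2 -1.34 ± 0.05). Of 9 cystatins, inhibitors of cysteine cathepsins, 6 passed the filter, and 5 of these rose and 1 fell (median log2 fold change 1.29). Of the 5 that rose, 4 were scarce and past a fold of 1.5 (CST1, CST2, CST4 and CST6, named after their values were seen), at 1.28 to 1.71 on the log2 scale. CST1, CST2 and CST4 are close paralogues, so how reads are divided among them is uncertain. CSTB, the abundant intracellular cystatin B, averaged 96.4 ± 4.51 CPM with NTX301 and 192 ± 3.89 CPM with DMSO (log2 -0.99 ± 0.04), and CST3, the secreted cystatin C, averaged 117 ± 5.84 CPM with NTX301 and 102 ± 3.91 CPM with DMSO (log2 0.19 ± 0.05). The 9 cystatins together summed to 686 ± 13.8 TPM with NTX301 and 823 ± 3.99 TPM with DMSO, a sum that carries no test.

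**Figure D5:**
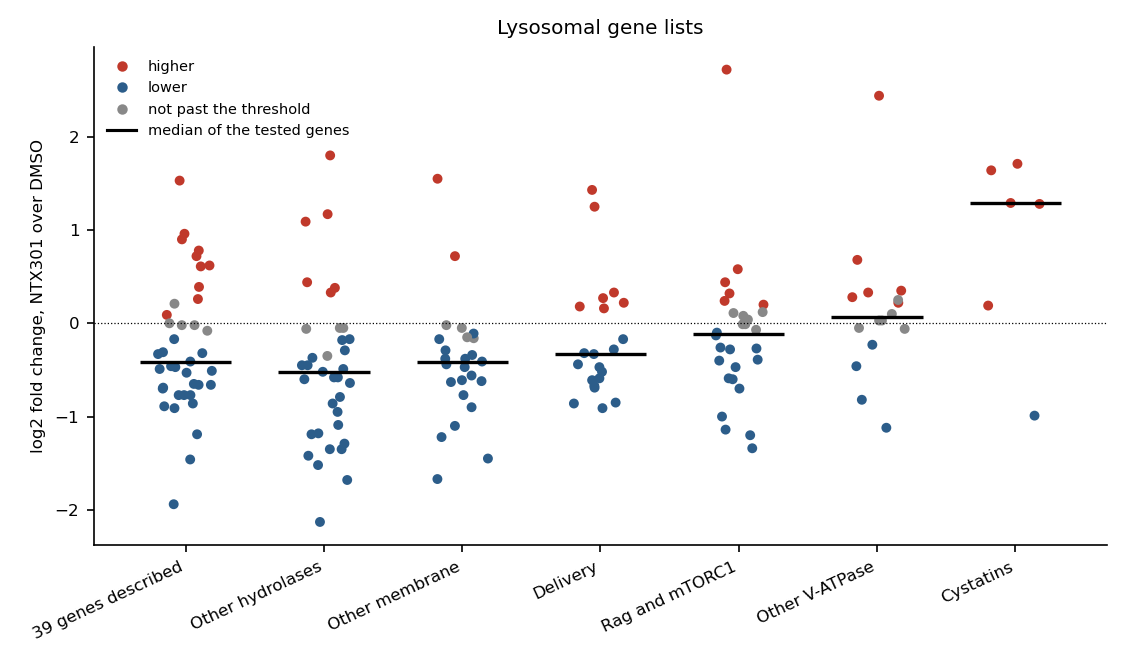
Log2 fold change (y axis, NTX301 over DMSO) of each tested gene in the 39 genes described and in 6 lists of other lysosomal genes (x axis), with a line at the median of each. Medians lie at -0.41 for the 39 genes, -0.52 for other hydrolases, -0.41 for other membrane proteins, -0.33 for delivery genes, -0.12 for Rag and mTORC1 genes, 0.07 for other V-ATPase subunits and 1.29 for the 6 tested cystatins.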

How the data were processed

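The members and lists were chosen with earlier results of these data known. The authors deposited 1 gene table per library, with columns that RSEM writes, per the file headers. The authors' expected counts estimate each gene's reads without normalization, and the deposited TPM values were scaled by the authors' run over all genes. The sources used here give no tool version, genome build or strand setting. Entries of pseudoautosomal genes on chromosome Y were added to their X copies, and 62639 of 62656 genes matched a symbol by identifier. Positions are from GENCODE 29 (GRCh38).

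Expected counts were rounded and tested with edgeR 4.0.16 (R 4.3.3): filterByExpr, TMM scaling, glmQLFit and glmQLFTest on the 6 libraries with a treatment term alone, Benjamini-Hochberg over 19029 genes, threshold 0.05. Totals per library were 22131175 to 25743732 estimated counts, so scarce genes such as TFEB carry the widest errors. CPM values use TMM-scaled library totals, ± after a CPM or TPM mean is the SD over 3 libraries, and ± after a log2 fold change is its standard error, taken as the fold change over the square root of F. Chi-square divided by its degrees of freedom was 2.37 to 6.57 between libraries of 1 treatment, so none counted as a duplicate. Values in every library are given for genes past a fold of 1.5, the factors, the 3 most abundant genes and, outside this rule, CTSC. Of each other list, the 2 genes with the largest change averaging at least 10 CPM are named. Alternatives were DESeq2 1.42.0, limma 3.58.1 on counts and on log2 TPM, other scalings and filters, a replicate block and leaving out each library. The fitting procedure was tested on simulated data in which few genes changed. In these data 70.5% of genes tested passed the threshold, a setting that the simulation did not cover. Promoters are from RefSeq (GRCh38.p14), and the last 25 bases stood in a GENCODE transcript of the gene in 27 of 29.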

Additional observations from a re-analysis of the deposited data

How the results depend on the processing

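In 29 of the 39 genes, direction and side of the threshold held in every alternative run. The number of genes that were lower ranged from 20 to 25 and the number higher from 9 to 15. The median log2 fold change of the 39 genes was -0.20 with no scaling factor, -0.19 on log2(TPM + 1) and -0.19 on log2(TPM + 0.1), and ran from -0.48 (without DMSO replicate 3) to -0.37 when 1 library was left out. With no scaling factor, GUSB (0.19), NPC2 (0.03), LAMP2 (0.13) and ATP6V1A (0.18) reversed in sign. On log2(TPM + 1) the reversed values were 0.19 for GUSB, 0.04 for NPC2, 0.16 for LAMP2 and 0.19 for ATP6V1A. On log2(TPM + 0.1) they were 0.20 for GUSB, 0.04 for NPC2, 0.16 for LAMP2 and 0.19 for ATP6V1A. NPC2 was past the threshold in none of these settings, and ATP6V1A was not past it on log2(TPM + 0.1) (limma adjusted p = 0.0590). These settings leave out the TMM factors, which were 1.068 to 1.083 with NTX301 and 0.9206 to 0.939 with DMSO. Leaving them out therefore raised most log2 fold changes in these data. Other membrane proteins that were higher numbered 5 with no scaling factor, 4 on log2(TPM + 1), 4 on log2(TPM + 0.1) and 1 with at least 10 CPM in 3 libraries. Other pump subunits that were higher numbered 10 with no scaling factor. Delivery genes that were lower numbered 9 and 8 on log2(TPM + 1) and log2(TPM + 0.1). Rag and mTORC1 genes that were higher numbered 12 with no scaling factor and on both TPM scales, and those lower numbered 8 on both TPM scales. The main fit tested 25 other membrane proteins, 16 other pump subunits, 21 delivery genes and 28 Rag and mTORC1 genes. Of all genes tested, 46.2% were higher and 24.9% lower with no scaling factor, and 45.2% and 22.5% on log2(TPM + 1). On log2(TPM + 0.1), 8420 of 19029 were higher and 4178 lower. Cystatins that were higher numbered 1 with at least 10 CPM in 3 libraries, where fewer genes are tested and 4501 of 10793 were higher.

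With the replicate number as a block, 24 genes fell and 10 rose, as without it. The block changed some standard errors, such as that of CD63 from 0.06 to 0.03 and that of CTSS from 0.12 to 0.13. Deviations of same-numbered libraries correlated by 0.1059, 0.0031 and 0.0741, not all over 0.1. NTX301 replicate 2 correlated best with DMSO replicate 1, by a narrow margin (0.0073 against 0.0031 for DMSO replicate 2). The numbers were therefore not taken to pair the libraries, but these values do not show that the libraries are unpaired. Depth limits mainly TFEB and CTSS, the scarcest of the 39.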

Other observations

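A few scarce genes related to the factors were more abundant with NTX301, and were chosen after their values were seen. TFEC, the remaining relative of TFEB, counted above in the list of Rag and mTORC1 control, had 46 counts over the NTX301 libraries and 6 over the DMSO libraries (log2 2.72 ± 0.47). TYRP1, a melanosomal protein whose gene MITF is known to drive in melanocytes, had 67 counts with NTX301 and 5 with DMSO, while PMEL, another such gene, had 221 and 164 and was not past the threshold. DCSTAMP, a fusion protein of osteoclasts, had no counts in any library. Of the 8 melanocyte and osteoclast genes listed, 3 were tested, and 1 rose and 2 were not past the threshold. Of all genes tested, 35.4% were higher. Among the pump genes, ATP6V0A4, the a4 subunit known from kidney, had 164 counts with NTX301 and 27 with DMSO (log2 2.44 ± 0.24). With so few DMSO counts, TFEC, TYRP1 and ATP6V0A4 passed the filter on low counts through the NTX301 libraries, where they were high. This favours a call of higher, so their calls are given as description only.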
